A study of Homo sapiens with 16 samples.

Results

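PGC and CHRNA2 are a pair of genes whose transcripts were abundant in androgen-treated prostate cancer cells and scarce in every other treatment group of this series. They were chosen by their measured values in the same libraries, as genes high with dihydrotestosterone (DHT) and close to absent once an androgen receptor antagonist was added, and they are 2 of the 60642 gene symbols in the deposited table. LNCaP cells, an androgen-responsive line from a human prostate cancer metastasis whose androgen receptor carries a mutation in its ligand-binding domain, were grown for 72 h in RPMI with 5% fetal bovine serum and then for 48 h in 5% charcoal-stripped serum, which is depleted of steroids. Treatment followed for 48 h. VEH cells received the solvents alone (ethanol and DMSO), DHT cells received 10 nM DHT, and BIC.VEH, ENZ.VEH and APA.VEH cells received 10 µM bicalutamide, enzalutamide or apalutamide without DHT. BIC.DHT, ENZ.DHT and APA.DHT cells received the antagonist and DHT together. Each of the 8 groups had 2 libraries, which the labels call biological replicates, so 16 libraries of polyadenylated RNA were compared. All groups came from this 1 cell line, passed through the steroid-depleted medium and were sampled at 1 time.

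DHT is the potent natural ligand of the androgen receptor, a nuclear receptor that binds DNA once it is occupied and changes the transcription of its target genes. The antagonists occupy the same ligand pocket. Enzalutamide and apalutamide share a thiohydantoin core and bicalutamide has a different scaffold. PGC encodes progastricsin (pepsinogen C), the inactive precursor of an aspartic protease that chief cells of the stomach secrete and that prostate epithelium releases into seminal fluid. CHRNA2 encodes the alpha-2 subunit of the neuronal nicotinic acetylcholine receptor, an ion channel that opens on binding acetylcholine and that is assembled from several subunits.

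In RefSeq (GRCh38.p14), PGC (gene ID 5225) lies on the minus strand of chromosome 6 from 41736711 to 41747397, where 0 other annotated genes overlap it. No promoter window of CHRNA2 was available here, so only the stretch upstream of the PGC start is printed. It covers the 250 bases before the annotated start, chr6:41747398-41747647 on the minus strand, written 5′ to 3′ in the direction of the gene, with the TATAAA motif in capitals.
PGC: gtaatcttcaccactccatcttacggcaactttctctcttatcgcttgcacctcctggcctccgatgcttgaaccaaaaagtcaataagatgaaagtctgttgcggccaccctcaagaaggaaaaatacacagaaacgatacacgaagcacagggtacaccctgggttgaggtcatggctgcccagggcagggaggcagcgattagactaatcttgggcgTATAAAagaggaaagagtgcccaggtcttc
The motif TATAAA, the consensus of the TATA box, occupied bases 30 to 25 before the start. On the gene strand it was present in 2574 of 35116 RefSeq promoter windows of 300 bases (7.33%), which run from 250 bases before to 50 bases after each start. The letters AGAACA, the core that androgen receptor elements carry, were searched on both strands, occurred 0 times in the window of PGC and were present in 5192 windows (14.79%). A match of these letters is a description of the sequence, and their absence here concerns these 300 bases only.

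Each library summed to between 976190 and 983114 TPM, a unit that gives each gene's share of all transcripts after division by its length, and 14652 to 15360 genes reached 1 TPM. TPM keeps no read depth. The labels state about 40 M read pairs of 125 bp per library, so the counting error behind each low value is unknown. Mitochondrial transcripts took 14.73% to 22.27% of the total, and both ends of this range were DHT libraries (replicate 2 and replicate 1), whose part in the results was not tested. The 8 luminal prostate markers summed to between 2385 and 3482 TPM in every library. The basal markers KRT5 and TP63 did not exceed 0.16 and 0.04 TPM, the leukocyte marker PTPRC did not exceed 0.10 TPM and the endothelial marker PECAM1 did not exceed 0.02 TPM. The 3 basal markers nonetheless summed to 1.68 and 1.75 TPM with DHT and to between 0 and 0.68 TPM elsewhere, through KRT14, which rose with DHT (0.04 against 1.635 TPM, adjusted p = 0.0039, in the limma fit described below). The 3 fibroblast markers summed to 11.44 and 15.87 TPM with DHT and to between 17.51 and 32.85 TPM elsewhere. Of these the collagen gene COL1A1 fell with DHT (29.23 against 13.5 TPM, adjusted p = 0.0036), and DCN did not exceed 0.07 TPM. KRT14 and COL1A1 were the only genes of their lists abundant enough to test, and 10.3% of all genes passed in DHT minus VEH. The part of these markers in the results was not tested.

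PGC stood at 43.33 and 30.77 TPM in the DHT libraries (37.05 ± 8.88, mean ± SD, n = 2) and at 0.42 and 0.04 TPM in the VEH libraries (0.23 ± 0.269). With DHT and an antagonist together it was 2.00 and 1.55 TPM for bicalutamide, 0.66 and 0.19 TPM for enzalutamide and 0.64 and 0.31 TPM for apalutamide. The DHT libraries therefore lay far above the other 14, and the BIC.DHT libraries were the next highest. With an antagonist and no DHT, PGC was 0.62 and 0.64 TPM for bicalutamide, 0.11 and 0.32 TPM for enzalutamide and 0.17 and 0.21 TPM for apalutamide. Only the DHT and BIC.DHT libraries reached 1 TPM, 4 of 16. The mean with DHT was 161 times the mean in VEH, a ratio that rests on VEH values below 1 TPM whose SD exceeded their mean. On the log2(TPM + 1) scale the difference was 4.95 for DHT minus VEH, −3.76 for BIC.DHT minus DHT, −4.74 for ENZ.DHT minus DHT and −4.68 for APA.DHT minus DHT, with an SE of 0.24. These 4 differences are the ones that chose the gene and carry no test.

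CHRNA2 (gene ID 1135, chromosome 8 from 27459756 to 27479261, with 0 overlapping genes) stood at 30.63 and 32.64 TPM with DHT (31.63 ± 1.42, n = 2) and at 0.34 and 0.41 TPM in VEH (0.375 ± 0.0495). With DHT and an antagonist it was 1.62 and 2.37 TPM for bicalutamide, 1.03 and 0.54 TPM for enzalutamide and 0.92 and 0.50 TPM for apalutamide. Its replicates with DHT were closer together than those of PGC, and the order of the 3 antagonist groups was again headed by BIC.DHT. Without DHT, CHRNA2 was 1.67 and 1.08 TPM for bicalutamide, 0.41 and 0.33 TPM for enzalutamide and 0.28 and 0.22 TPM for apalutamide. CHRNA2 thus differed from PGC in reaching 1 TPM also in both BIC.VEH libraries and in 1 ENZ.DHT library, 7 of 16 in all. The mean with DHT was 84.4 times the mean in VEH. The log2(TPM + 1) differences, again used to choose the gene and untested, were 4.57 for DHT minus VEH, −3.46 for BIC.DHT minus DHT, −4.21 for ENZ.DHT minus DHT and −4.26 for APA.DHT minus DHT (SE 0.21).

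**Figure D1:**
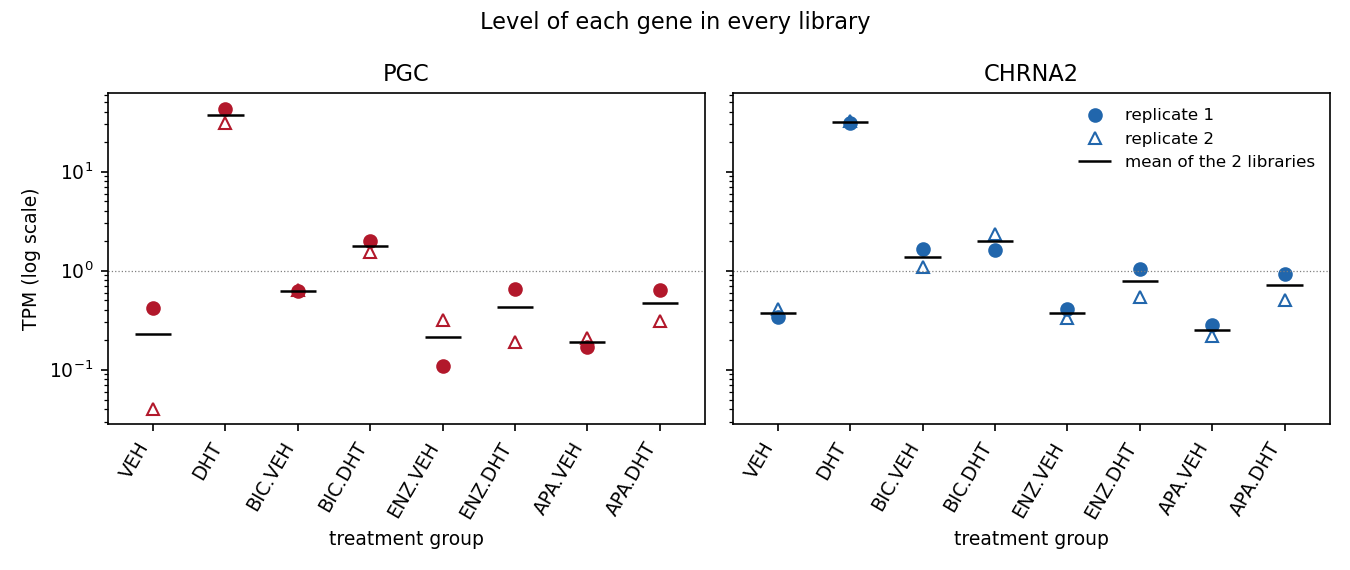
TPM of PGC (left) and CHRNA2 (right) in each of the 16 libraries, on a logarithmic axis, with the 8 treatment groups along the horizontal axis, circles for replicate 1, triangles for replicate 2, a bar at the mean of the 2 libraries and a dotted line at 1 TPM. The DHT libraries sit between 30.63 and 43.33 TPM for both genes, and the remaining 14 libraries sit at or below 2.37 TPM.

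As a share of the level in the DHT library of the same replicate number, the BIC.DHT level was 4.62% and 5.04% for PGC and 5.29% and 7.26% for CHRNA2. The ENZ.DHT level was 1.52% and 0.617% for PGC and 3.36% and 1.65% for CHRNA2. The APA.DHT level was 1.48% and 1.01% for PGC and 3.0% and 1.53% for CHRNA2. In both replicates and for both genes, the share with DHT and bicalutamide was thus larger than with DHT and another antagonist. With bicalutamide and no DHT, the share was 1.43% and 2.08% for PGC and 5.45% and 3.31% for CHRNA2. For CHRNA2 in replicate 1 it exceeded the BIC.DHT share. For VEH, the share was 0.969% and 0.13% for PGC and 1.11% and 1.26% for CHRNA2. In bulk RNA, fewer cells making a transcript and less transcript in each cell cannot be told apart.

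From highest to lowest group mean, PGC ran DHT, BIC.DHT, BIC.VEH, APA.DHT, ENZ.DHT, VEH, ENZ.VEH and APA.VEH. Only the first steps, DHT to BIC.DHT and BIC.DHT to BIC.VEH, were between groups whose libraries did not overlap. CHRNA2 ran DHT, BIC.DHT, BIC.VEH, ENZ.DHT, APA.DHT, VEH, ENZ.VEH and APA.VEH. Its neighbours BIC.DHT and BIC.VEH, ENZ.DHT and APA.DHT, and VEH and ENZ.VEH overlapped. How often groups of 2 libraries separate over all genes was not counted. By group mean among the 16636 genes tested, PGC ranked 4084th with DHT and 16431st in VEH, and CHRNA2 ranked 4620th with DHT and 16344th in VEH. In BIC.DHT, 18.6% of tested genes had a lower mean than PGC and 20.4% a lower mean than CHRNA2. The ratio of PGC to CHRNA2 within a library was 1.41 and 0.943 with DHT and ran from 0.0976 to 1.41 over the 16 libraries, with the lowest value in VEH replicate 2.

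The separation of DHT alone from all other groups was then ranked over genes as the lower DHT library divided by the highest of the other 14 libraries. Among 10797 genes with a mean of at least 5 TPM with DHT, 4 had no ratio because they were listed at 0 in the other 14 libraries. Of these, AC037487.3 and AC243994.1 were also at 0 in their lower DHT library. The median ratio was 0.746, 1517 genes exceeded 1, 73 exceeded 2 and 4 exceeded 10. PGC came second with 15.38 (30.77 TPM against 2.00 TPM in BIC.DHT replicate 1). CHRNA2 came next with 12.92 (30.63 TPM against 2.37 TPM in BIC.DHT replicate 2). Just above the pair was ORM1, an acute-phase plasma protein gene, with 32.4 (8.10 against 0.25 TPM), and just below was AC100756.4 with 11.91 (4.17 against 0.35 TPM). The androgen-induced genes KLK2 (a kallikrein protease), FKBP5 (a co-chaperone of steroid receptors) and TMPRSS2 (a membrane serine protease) had ratios of 6.221, 4.053 and 3.668, at ranks 8, 15 and 16. These ratios describe the values that chose the pair and are no test.

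**Figure D2:**
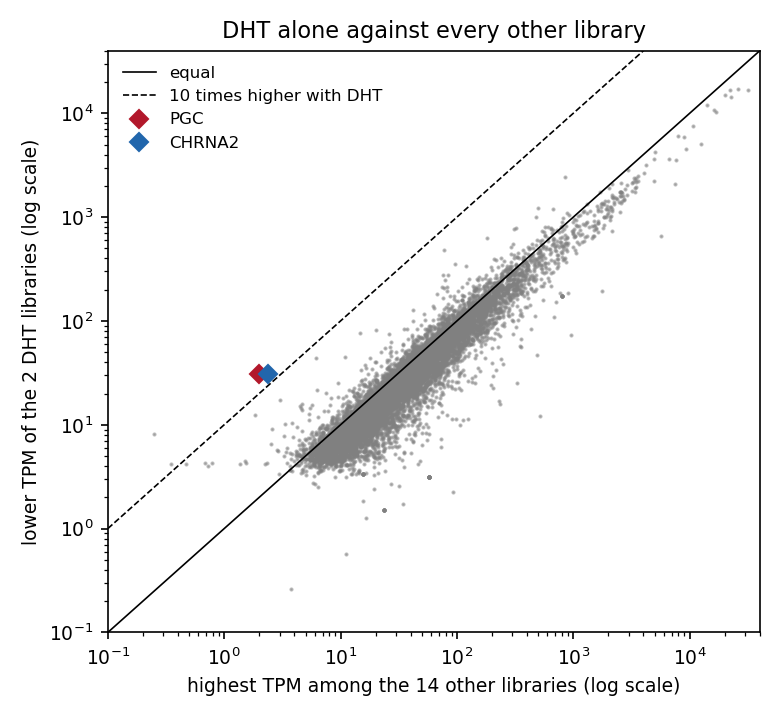
Each grey point is a gene with a mean of at least 5 TPM in DHT, placed by its highest TPM among the 14 other libraries (horizontal, log scale) and the lower TPM of its 2 DHT libraries (vertical, log scale), without genes at 0 on either axis. The solid line marks equal values and the dashed line a 10 times higher value with DHT, and PGC (15.38) and CHRNA2 (12.92) lie above the dashed line at about 31 TPM.

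The 15 comparisons other than the 4 differences that chose the pair were tested with limma on log2(TPM + 1) over all 16636 genes. Benjamini-Hochberg adjustment was made in each comparison. In this fit, which leaves out the replicate number, 0 of the 30 tests of the pair passed an adjusted p of 0.05. An unadjusted p under 0.05 was found in 10 tests, 4 for PGC and 6 for CHRNA2. The genes had been chosen in part for low values with an antagonist, and every one of these comparisons contains an antagonist group. Small differences between low groups therefore follow in part from the choice and are no independent result. Both genes had higher values in BIC.DHT than in VEH, and neither difference passed in this fit. The difference was 1.19 for PGC (95% interval 0.66 to 1.72, adjusted p = 0.29) and 1.11 for CHRNA2 (0.65 to 1.57, adjusted p = 0.22). Both BIC.DHT libraries exceeded both VEH libraries for each gene, but how many of all genes separate like this was not counted. In this comparison 0.012% of all genes passed, namely KLK2 and TRPM8, an androgen-induced cation channel. With the replicate number as a block the adjusted p was 0.037 for PGC and 0.039 for CHRNA2, and 0.529% of genes passed. Over the 9 alternatives the adjusted p ran from 0.037 to 1.0 for PGC and from 0.039 to 1.0 for CHRNA2.

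For enzalutamide and apalutamide with DHT, the levels stood closer to VEH, and low levels in these groups were part of the choice of the genes. ENZ.DHT minus VEH was 0.21 for PGC (−0.32 to 0.74) and 0.36 for CHRNA2 (−0.10 to 0.82), with adjusted p of 0.81 and 0.74. APA.DHT minus VEH was 0.27 for PGC (−0.26 to 0.80) and 0.30 for CHRNA2 (−0.16 to 0.76), both with an adjusted p of 0.92. The intervals include 0 and also include a difference of 0.7 log2 units or more, so equality with VEH was not shown. The share of all genes passing was 0.00601% for ENZ.DHT and 0.0% for APA.DHT, where 508 genes had an unadjusted p under 0.05.

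The response to DHT that remained under each antagonist was taken as the antagonist with DHT minus the antagonist alone. For PGC it was 0.76 with bicalutamide (0.23 to 1.29, unadjusted p = 0.009, adjusted p = 1.0), 0.22 with enzalutamide (−0.32 to 0.75, adjusted p = 0.86) and 0.30 with apalutamide (−0.23 to 0.83, adjusted p = 0.96). Both BIC.DHT libraries (2.00 and 1.55 TPM) lay above both BIC.VEH libraries (0.62 and 0.64 TPM), a separation not counted over all genes. For CHRNA2 it was 0.33 (−0.13 to 0.79, adjusted p = 1.0), 0.37 (−0.09 to 0.83, adjusted p = 0.84) and 0.44 (−0.02 to 0.90, adjusted p = 0.96) in the same order. The CHRNA2 libraries of BIC.DHT and BIC.VEH overlapped. Across all genes, 0.0% passed with bicalutamide (234 genes at an unadjusted p under 0.05) and 0.00601% with each of the other 2 antagonists.

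Without DHT, the antagonists were compared with the solvents. BIC.VEH minus VEH was 0.42 for PGC (−0.11 to 0.95, adjusted p = 1.0) and 0.78 for CHRNA2 (0.32 to 1.24, unadjusted p = 0.0033, adjusted p = 1.0). CHRNA2 was at 1.67 and 1.08 TPM in BIC.VEH and at 0.34 and 0.41 TPM in VEH. These libraries did not overlap, and such separation was not counted over all genes. ENZ.VEH minus VEH was −0.01 for both genes, with intervals from −0.54 to 0.53 for PGC and from −0.47 to 0.45 for CHRNA2. APA.VEH minus VEH was −0.03 for PGC (−0.56 to 0.50) and −0.14 for CHRNA2 (−0.60 to 0.32). None of these 6 tests passed, and of all genes 0.0% passed for bicalutamide (194 at an unadjusted p under 0.05), 0.0% for enzalutamide (139) and 0.00601% for apalutamide.

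The antagonists were also set against each other at the same 10 µM and 48 h, in 12 pairs counting both genes with and without DHT. With DHT, enzalutamide minus bicalutamide was −0.98 for PGC (−1.51 to −0.45, unadjusted p = 0.0019). For CHRNA2 it was −0.75 (−1.21 to −0.29, unadjusted p = 0.0042), and the adjusted p was 0.93 for each gene. Apalutamide minus bicalutamide was −0.92 for PGC (−1.45 to −0.38, unadjusted p = 0.0029) and −0.81 for CHRNA2 (−1.27 to −0.35, unadjusted p = 0.0026), each with an adjusted p of 1.0. In these 4 pairs every bicalutamide library was above every library of the other antagonist, although no pair passed the adjustment over all genes. With 2 libraries a group such a separation is no support for a difference, and its share over all genes was not counted. Between the structurally close pair, apalutamide minus enzalutamide was 0.06 for PGC (−0.47 to 0.59) and −0.06 for CHRNA2 (−0.52 to 0.40), with intervals that reach from −0.52 to 0.59. Of all genes, 0.00601% differed between enzalutamide and bicalutamide, 0.0% between apalutamide and bicalutamide (483 at an unadjusted p under 0.05) and 0.00601% between apalutamide and enzalutamide.

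Without DHT the gap from bicalutamide was larger for CHRNA2 than for PGC in value. Enzalutamide minus bicalutamide was −0.43 for PGC (−0.96 to 0.10) and −0.78 for CHRNA2 (−1.24 to −0.32, unadjusted p = 0.0032). Apalutamide minus bicalutamide was −0.45 for PGC (−0.99 to 0.08) and −0.92 for CHRNA2 (−1.38 to −0.46, unadjusted p = 0.0011, adjusted p = 0.94). Apalutamide minus enzalutamide was −0.02 for PGC (−0.56 to 0.51) and −0.13 for CHRNA2 (−0.59 to 0.33). The remaining adjusted p-values were 1.0, and whether the genes differed from each other in these gaps was not tested. Of all genes, 0.0% passed for enzalutamide against bicalutamide (297 at an unadjusted p under 0.05), 0.012% for apalutamide against bicalutamide and 0.00601% for apalutamide against enzalutamide.

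**Figure D3:**
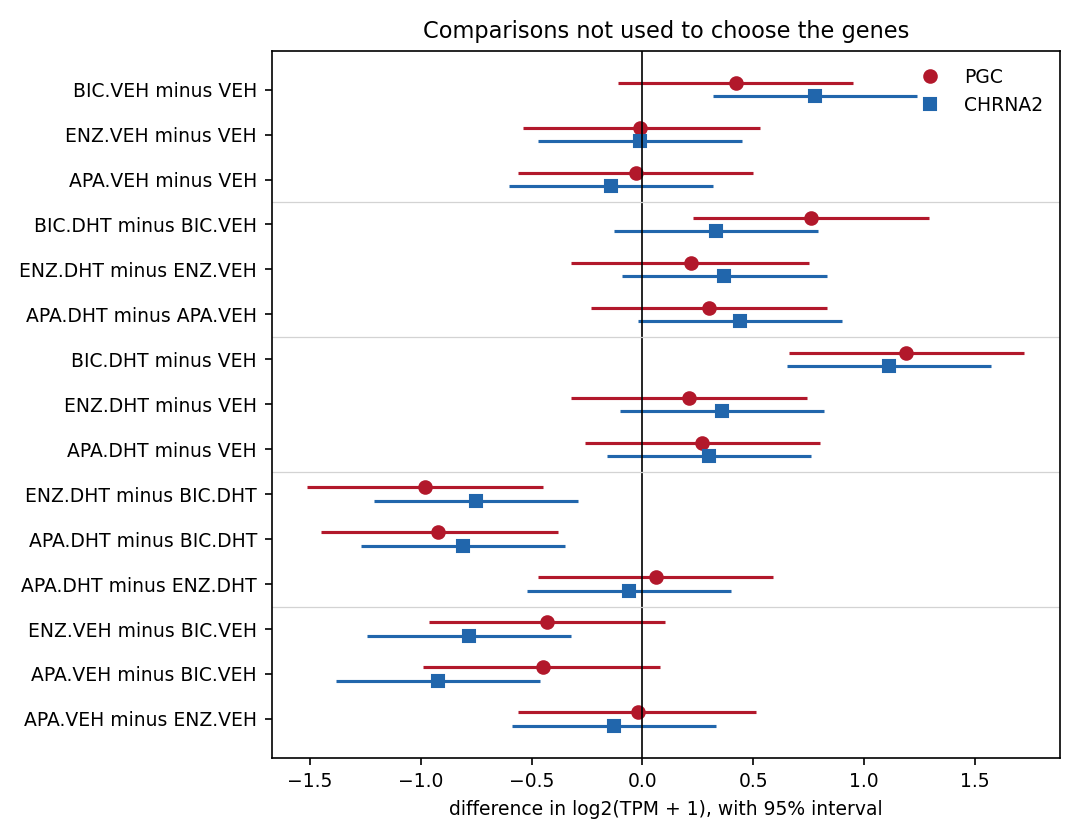
Differences in log2(TPM + 1) for PGC (circles) and CHRNA2 (squares) in the 15 tested comparisons, each named as first group minus second group. Horizontal lines are 95% intervals from the limma fit. Every comparison contains an antagonist group, and low values with an antagonist were part of the choice of the genes. The differences are therefore no independent result, and none passed an adjusted p of 0.05 in this fit. PGC reached 1 TPM only in the DHT and BIC.DHT groups, so its comparisons without BIC.DHT are between values below 1 TPM. The intervals of both genes lie above 0 for BIC.DHT minus VEH (1.19 and 1.11) and below 0 for enzalutamide and apalutamide minus bicalutamide with DHT, and they span 0 for apalutamide minus enzalutamide.

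The expression profile over the 16 libraries was then compared with that of every tested gene by Pearson's r on log2(TPM + 1), as a description. The libraries share 8 treatments and the DHT libraries carry most of the range, so high values are shared by many genes. PGC and CHRNA2 had r = 0.987 with each other, and each was the third most similar gene to the other among 16635. The 10 genes most like PGC were TBX15, ELOVL5, CHRNA2, UAP1, AC113143.3, ASRGL1, PCSEAT, TRGC2, PPIB and CTNNA2, with r from 0.9905 down to 0.9803. Those most like CHRNA2 were UAP1, ELOVL5, PGC, STK39, ZNF812P, ASRGL1, TUBA3E, PEX10, AC113143.3 and PPIB, with r from 0.9917 down to 0.9818. Besides the pair itself, 5 genes stood in both lists. ELOVL5, a fatty acid elongase, had 108.2 TPM in VEH, 663.1 TPM with DHT and 174.5 TPM in BIC.DHT. UAP1, which makes UDP-N-acetylglucosamine, had 47.42, 215.4 and 76.31 TPM in the same groups. ASRGL1, an asparaginase, had 3.45, 22.02 and 5.515 TPM, and PPIB, a peptidyl-prolyl isomerase of the endoplasmic reticulum, had 467.4, 762.0 and 534.6 TPM. AC113143.3 had 0.03, 1.185 and 0.125 TPM. The VEH means of the genes in these lists ran from 0 TPM (TRGC2) to 467.4 TPM (PPIB). The pseudocount of 1 flattens the profile of a gene at low TPM, so r depends in part on the level.

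A pair of alternatives bears on this similarity. Over the 14 libraries without DHT alone, r between PGC and CHRNA2 was 0.86, CHRNA2 was then the 8th most like PGC and PGC the 21st most like CHRNA2, and the highest values belonged to ADH1C for PGC (0.926) and EAF2 for CHRNA2 (0.944). With a pseudocount of 0.1 in place of 1, r was 0.966, with ranks 9 and 15.

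The 3 other aspartic proteases abundant enough to test did not pass in DHT minus VEH. Of 8 genes on a list of this family, 5 stayed below 1 TPM in every library, including the pepsinogens A of the stomach, PGA3, PGA4 and PGA5, with highest values of 0.19, 0.14 and 0.03 TPM. NAPSA (napsin A) did not exceed 0.86 TPM. CTSE (cathepsin E), which was too low to test, had means of 0.01 TPM in VEH, 0.25 in DHT, 0.215 in BIC.DHT, 0.05 in ENZ.DHT and 0.08 in APA.DHT, an order with DHT highest as for PGC. The 3 genes tested were CTSD, BACE1 and BACE2, with 0 calls, 0 at an unadjusted p under 0.05 and a median difference of −0.30 against −0.10 over all genes. CTSD, the lysosomal protease cathepsin D, was the most abundant, at 442.9 ± 181 TPM without DHT (VEH) and 489.7 ± 144 with it (difference 0.18, adjusted p = 0.84). BACE1, the beta-secretase, went from 27.23 to 21.0 TPM and its relative BACE2 from 1.225 to 0.805 TPM, each with an adjusted p of 0.37. With the replicate block, BACE2 was higher in ENZ.DHT than in DHT (0.66, adjusted p = 0.019) and CTSD lower in APA.DHT than in DHT (−0.34, adjusted p = 0.048). That is 1 of 3 genes in each comparison, where 29.2% and 27.3% of all genes passed. In DHT minus VEH 10.3% of all genes passed, 3.63% higher and 6.64% lower with DHT. Under median-ratio scaling 1046 genes were higher and 860 lower, against 604 and 1105. Reads of 125 bases cannot all be placed uniquely in PGA3, PGA4 and PGA5, since 47.1%, 52.8% and 60.1% of their 125-base words occur in another gene of the annotation, against 0 of 2021 for PGC.

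None of the other nicotinic receptor subunits tested passed in DHT minus VEH in the limma fit without the block. Of 15 genes, 8 stayed below 1 TPM, 3 of them at 0 throughout (CHRNA6, CHRNB3 and CHRNG), and CHRNB2 and CHRNB4, the beta subunits that pair with alpha-2 in neurons, did not exceed 0.17 and 0.44 TPM. Of the 7 tested, 0 passed in DHT minus VEH (2 at an unadjusted p under 0.05), and the median difference was −0.40. Over all genes 10.3% passed and the median was −0.10, and 7 genes are too few to set a count of 0 apart from that share. CHRNA5, an accessory subunit, had the highest level, 5.98 ± 2.33 TPM in VEH and 8.575 ± 2.37 TPM with DHT (0.48, adjusted p = 0.45). CHRNA4, a partner of beta-2 in brain receptors, was 2.71 ± 1.36 and 0.86 ± 1.00 TPM (−1.06, adjusted p = 0.08), and CHRNA3, the ganglionic alpha subunit, was 1.5 ± 0.311 and 0.60 ± 0.099 TPM (−0.64, adjusted p = 0.075). CHRNB1, the muscle beta subunit, was 3.225 and 1.995 TPM, and CHRNA7, CHRNA10 and CHRNE had group means between 0.395 and 1.465 TPM in VEH and DHT. With the replicate block CHRNA4 (adjusted p = 0.016) and CHRNA3 (0.025) passed, both lower with DHT, among 27.4% of all genes that passed in that fit. CHRNA4 also passed without DHT replicate 1. For CHRNA7, 12.5% of 125-base words occur also in another gene, mainly its partial copy CHRFAM7A, against 0 of 6016 for CHRNA2. In the comparisons of ENZ.DHT and APA.DHT with DHT, 0 of the 7 subunits passed, where 9.65% and 8.36% of all genes passed. An unadjusted p under 0.05 was found for 0 and 1 of the subunits. Under the block CHRNA5 was lower in each (−0.60, adjusted p = 0.04 and 0.042), 1 of 7 where 29.2% and 27.3% of all genes passed. The subunits showed 0 calls in BIC.DHT minus DHT, with 1 at an unadjusted p under 0.05, where 3.13% of all genes passed.

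**Figure D4:**
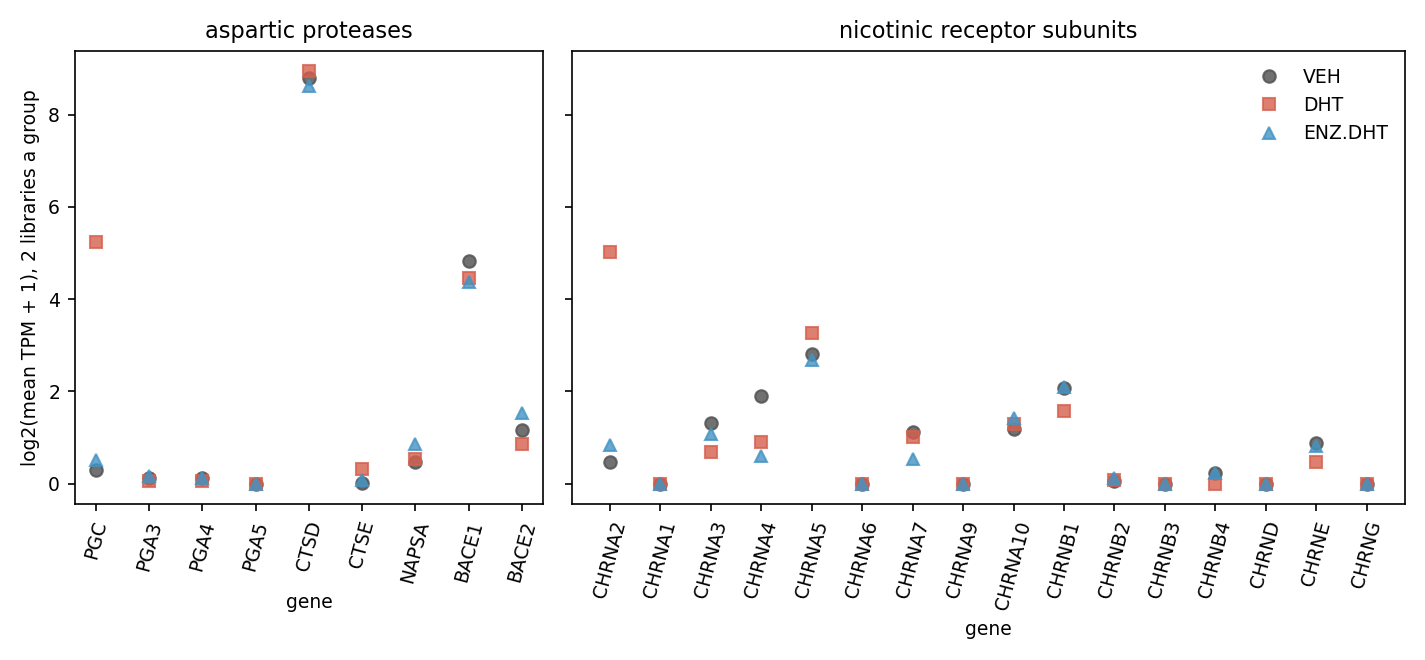
Group means as log2(mean TPM + 1) of 2 libraries each in VEH (circles), DHT (squares) and ENZ.DHT (triangles), for PGC with 8 other aspartic proteases (left) and CHRNA2 with 15 other nicotinic receptor subunits (right). PGC and CHRNA2 are the genes whose DHT symbol lies far above the other symbols, whereas CTSD is high in all 3 groups and most subunits lie near 0.

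Genes that help nicotinic receptors assemble or that modulate them had lower means with DHT in all 4 cases tested. RIC3, a chaperone of nicotinic receptors, was 8.94 TPM in VEH and 7.435 TPM with DHT, and LYNX1, a membrane-anchored modulator, was 34.76 and 28.47 TPM. LYPD6B, a modulator of the same Ly6 family, was 5.51 ± 2.5 TPM in VEH and 0.975 ± 0.573 TPM with DHT (−1.70, adjusted p = 0.069). The secreted ligand SLURP1 was 4.06 ± 1.53 and 1.64 ± 0.976 TPM (−0.96, adjusted p = 0.25). Of the 4 tested of 6 genes, 0 passed (1 at an unadjusted p under 0.05), with a median of −0.60. Over all genes 10.3% passed, with a median of −0.10. With the replicate block LYPD6B (adjusted p = 1.3e-05) and SLURP1 (0.0018) were lower with DHT, 2 of 4 where 27.4% of all genes passed. Under the block both were also higher in each antagonist group with DHT than with DHT alone, with 1.12 and 0.92 for bicalutamide, 1.65 and 1.15 for enzalutamide and 1.63 and 1.45 for apalutamide. In those fits 13.3%, 29.2% and 27.3% of all genes passed. Without the block the calls in these comparisons were 0 of 4, with 0, 2 and 2 at an unadjusted p under 0.05. The shares of all genes passing were then 3.13%, 9.65% and 8.36%.

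Among genes that make, carry or break down acetylcholine, the butyrylcholinesterase gene BCHE fell with DHT. It was the 1 call among 2 genes tested, where 10.3% of all genes passed. Its VEH level was 97.67 ± 11.7 TPM and its DHT level 11.61 ± 2.5 TPM (−2.98, SE 0.24, adjusted p = 3.1e-05), opposite in direction to CHRNA2. Relative to DHT, BCHE rose in BIC.DHT by 2.44 to 67.11 TPM (adjusted p = 0.00037), in ENZ.DHT by 2.59 to 75.41 TPM and in APA.DHT by 2.71 to 82.34 TPM. BCHE was called in each of these 3 comparisons, where 3.13%, 9.65% and 8.36% of all genes passed. When only the groups compared entered the fit, these 3 calls were lost (adjusted p = 0.11, 0.069 and 0.11). CHKA (choline kinase) had 25.52 TPM in VEH and 31.14 TPM with DHT (adjusted p = 0.22). CHAT, SLC18A3 and SLC5A7, the synthesis and transport genes of cholinergic neurons, did not exceed 0.02, 0.06 and 0.11 TPM, and acetylcholinesterase (ACHE) did not exceed 0.95 TPM.

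Well-known androgen-induced genes were followed for scale, and they are no independent evidence because the list was set with earlier results known. Of 15, 13 were higher with DHT than in VEH and 0 lower, against 3.63% and 6.64% of all genes, with a median difference of 2.20. Relative to DHT, 11 were lower in BIC.DHT (of all genes 3.13% passed, 1.68% lower and 1.45% higher), 14 in ENZ.DHT (9.65% passed, 4.91% lower and 4.74% higher) and 13 in APA.DHT (8.36% passed, 4.11% lower and 4.25% higher). The medians were −1.39, −2.10 and −2.21. With the replicate block 13 were lower in BIC.DHT, where 13.3% of all genes passed, with KLK3 (adjusted p = 0.0012) and KLK4 (0.01) added. KLK3, which encodes prostate-specific antigen, had 38.52 ± 20.5 TPM in VEH, 3262 ± 1190 in DHT and 644.6, 205.3 and 215.1 in the BIC.DHT, ENZ.DHT and APA.DHT groups. KLK2 was 4.19, 489.1, 74.48, 24.63 and 22.05 TPM in the same groups, and TMPRSS2 was 38.74, 354.4, 65.39, 43.05 and 36.61 TPM. In these genes as in PGC and CHRNA2, BIC.DHT had the highest level in value of the 3 groups with DHT and an antagonist. The DHT minus VEH differences of 6.57 for KLK2 and 6.42 for KLK3 exceeded those of PGC and CHRNA2 on the log2(TPM + 1) scale. The pseudocount of 1 understates the differences of PGC and CHRNA2, whose VEH means were 0.23 and 0.375 TPM. This order is therefore not one of fold changes. With a pseudocount of 0.1, DHT minus VEH was 7.084 for PGC and 6.065 for CHRNA2. KLK2 and KLK3 are not given at that pseudocount, so these values cannot be set against 6.57 and 6.42. The mean levels of KLK2 and KLK3 with DHT and an antagonist were 22.05 TPM or more. CAMKK2 (28.12 and 31.55 TPM) and ACPP, the prostatic acid phosphatase (65.75 and 83.38 TPM), did not pass in DHT minus VEH.

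Because PGC is best known from the stomach, markers of gastric glands were read in the same libraries. Of 14 genes, 12 stayed below 1 TPM and 4 of these were at 0 throughout (LIPF, CBLIF, GKN1 and GKN2). ATP4A and ATP4B, the proton pump subunits of parietal cells, did not exceed 0.09 and 0.06 TPM. BHLHA15 and TFF1, on the same list, did reach 1 TPM. The list summed to 5.90 and 8.95 TPM with DHT and to between 2.46 and 4.66 TPM elsewhere. Of the 2 genes tested, BHLHA15 (MIST1), a transcription factor of secretory cells, passed in DHT minus VEH, where 10.3% of all genes passed. It had 2.935 ± 0.658 TPM in VEH and 6.435 ± 1.31 TPM with DHT (0.92, SE 0.19, adjusted p = 0.01). In BIC.DHT, ENZ.DHT and APA.DHT against DHT, 3.13%, 9.65% and 8.36% of all genes passed. There BHLHA15 was lower than with DHT by −1.07, −1.66 and −1.26, with adjusted p of 0.011, 0.00039 and 0.0022. Its call in DHT minus VEH was lost without DHT replicate 2 (adjusted p = 0.1), without VEH replicate 2 (0.087) and when only those groups entered the fit (0.12). Its call in BIC.DHT minus DHT was lost without BIC.DHT replicate 1 (0.098), BIC.DHT replicate 2 (0.091) or DHT replicate 2 (0.12). TFF1, a mucosal trefoil peptide, had 0.855 TPM in VEH and 0.79 TPM with DHT.

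Neighbouring genes on the chromosome were examined to see whether the difference extended along the DNA. Within 250 kb of PGC, RefSeq lists 18 genes, of which 14 had rows and 10 were tested. In DHT minus VEH 0 of the 10 passed, with 2 at an unadjusted p under 0.05, where 10.3% of all genes passed and 4182 of 16636 had an unadjusted p under 0.05. The nearest, TFEB, a transcription factor of lysosome genes, lies 0.5 kb away and was 10.72 ± 4.23 TPM in VEH and 6.735 ± 1.97 TPM with DHT (−0.57, adjusted p = 0.43). FRS3, an adaptor of fibroblast growth factor receptors 22.8 kb away, was 4.575 ± 0.191 and 2.965 ± 0.0636 TPM (−0.49, adjusted p = 0.054). The remaining coding genes tested (PRICKLE4, TOMM6, USP49, FOXP4, MED20, BYSL and CCND3) had differences from −0.66 to 0.51, and MDFI did not pass the filter on low values. With the block FRS3 (adjusted p = 0.012) and TFEB (0.0077) were lower and BYSL (0.0043) higher with DHT, 3 of 10 where 27.4% of all genes passed. Under the block BYSL and CCND3 were also lower than with DHT in ENZ.DHT (−0.67 and −0.46) and in APA.DHT (−0.65 and −0.47), FRS3 was higher in both (0.48 and 0.40) and TFEB was higher in APA.DHT (0.53), with adjusted p from 0.00094 to 0.034. Those fits called 29.2% and 27.3% of all genes.

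Around CHRNA2, RefSeq lists 16 genes within 250 kb, 12 had rows and 6 were tested, and 0 passed in DHT minus VEH, with 1 at an unadjusted p under 0.05, against the same 10.3% and 4182 of all genes. PTK2B, a tyrosine kinase related to focal adhesion kinase and 0.4 kb away, was 97.56 ± 13.3 TPM in VEH and 106.9 ± 11.2 TPM with DHT (0.13, adjusted p = 0.66). EPHX2, an epoxide hydrolase 11.9 kb away, was 83.09 ± 18.2 and 99.26 ± 17.5 TPM (0.26, adjusted p = 0.48). CLU (clusterin), SCARA3, TRIM35 and STMN4 had differences of −0.25, 0.08, 0.46 and −0.65. With the block TRIM35 (adjusted p = 0.049) was higher and STMN4 (0.0081) lower with DHT, 2 of 6 against 27.4% of all genes. STMN4 was also higher under the block in ENZ.DHT (0.45, adjusted p = 0.044) and APA.DHT (0.75, 0.004) than with DHT. TRIM35, a ubiquitin ligase 148.5 kb away, was also lower in ENZ.DHT and APA.DHT than in DHT, by −0.75 and −0.83 (adjusted p = 0.026 and 0.017). It was the 1 call among 6 neighbours in each comparison, where 9.65% and 8.36% of all genes passed. Each of these calls was lost without DHT replicate 1 (adjusted p = 0.076 and 0.057) and without DHT replicate 2 (0.16 and 0.12), the first also without ENZ.DHT replicate 1 (0.16) and the second also without APA.DHT replicate 1 (0.08). Among the tested neighbours of both genes, the differences ran from −0.66 to 0.51, against 4.95 for PGC and 4.57 for CHRNA2.

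**Figure D5:**
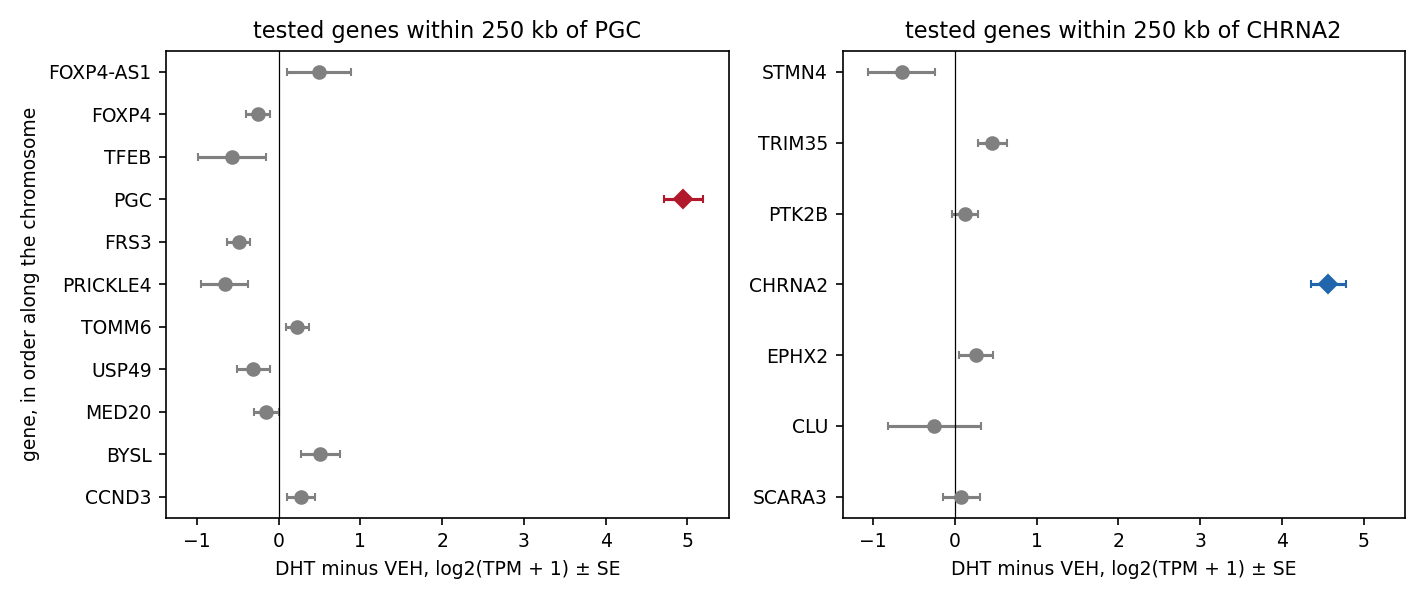
DHT minus VEH difference in log2(TPM + 1) with its SE (horizontal) for the genes tested within 250 kb of PGC (left) and CHRNA2 (right), listed from top to bottom in their order along the chromosome. PGC (4.95) and CHRNA2 (4.57) stand apart, and the neighbours lie between −0.66 and 0.51.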

How the data were processed

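RNA from LNCaP cells was sequenced in 16 libraries, grouped by the sample labels into 8 treatments of 2 biological replicates. The deposited values are TPM per gene symbol, made by the authors with Trim Galore 0.6.5, STAR 2.7.2b and RSEM 1.3.3 on GRCh38, per the submitters' processing notes and the study's methods, with FastQC 0.11.9 for quality checks. TPM is scaled to a fixed total, so abundant transcripts lower the rest. Columns of other samples numbered 0.

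Genes with at least 1 TPM in 2 or more libraries (16636) were tested with limma 3.58.1 (R 4.3.3, trend) on log2(TPM + 1), in 1 model of the 8 group means, with Benjamini-Hochberg adjustment over all genes in each comparison and a threshold of 0.05. A pseudocount of 1 understates the change of low genes. The fit was tried on simulated data with independent noise in each library and changes put on more abundant genes. That trial does not cover genes at low levels or a pairing of replicates. Differences between replicates 1 and 2 correlated between groups in all 28 pairs of groups (r from 0.204 to 0.635, median 0.427), so the numbers pair the samples. The titles also number all first replicates alike and all second replicates alike, and the labels do not say what these numbers mark. The main fit leaves this pairing out, so its intervals and adjusted p-values are those of unpaired libraries. Blocked values are given where they change a call of the pair, a listed protease, receptor or androgen-induced gene, or a neighbour.

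The pair of genes, the lists and the comparisons were chosen with earlier results of these data known. Named genes were the 10 most correlated with each member, the nearest in the DHT ratio, the list genes at 1 TPM or more in any group, up to 8 a list, and coding neighbours within 250 kb; others are named from counts or as markers and were picked after their values were seen. Coordinates and promoters are from RefSeq tables of GRCh38.p14, and shared 125-base words from Gencode transcripts of another release than the authors used. 1 gene of a list is not reported here. The alternatives were the block, a pseudocount of 0.1, no filter on low values, median-ratio scaling, a fit of only the groups compared and leaving out each replicate.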

Additional observations from a re-analysis of the deposited data

How the results depend on the processing

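The 30 tests of PGC and CHRNA2 were recomputed under 270 alternatives. In 253 the direction and the side of the threshold stayed, in 2 a difference passed under the replicate block (BIC.DHT minus VEH, 1.186 for PGC and 1.112 for CHRNA2), and in 15 an uncalled difference near 0 changed sign. The block changed no other call of the pair. With a pseudocount of 0.1 the PGC differences ENZ.VEH minus VEH and APA.VEH minus VEH became 0.138 and 0.101. Leaving out 1 replicate at a time gave, for PGC, −0.23 to 0.219 for ENZ.VEH minus VEH, −0.255 to 0.194 for APA.VEH minus VEH, −0.025 to 0.456 for ENZ.DHT minus ENZ.VEH, −0.03 to 0.45 for ENZ.DHT minus VEH, −0.18 to 0.301 for APA.DHT minus ENZ.DHT and −0.15 to 0.1 for APA.VEH minus ENZ.VEH. For CHRNA2 it gave −0.048 to 0.037 for ENZ.VEH minus VEH and −0.258 to 0.14 for APA.DHT minus ENZ.DHT. A lone remaining library was assumed to vary like the other groups.

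The untested differences that chose the pair kept their sign in all 72 alternatives and moved beyond 1 SD in 20. With a pseudocount of 0.1, DHT minus VEH was 7.084 for PGC and 6.065 for CHRNA2. Counts of calls in DHT minus VEH were 2 of 7 nicotinic subunits with the replicate block, 1 with a pseudocount of 0.1 (CHRNA3) and 0 to 1 when 1 replicate was left out. They were 2 of 4 assembly genes and modulators with the block and 1 with a pseudocount of 0.1 (LYPD6B), 3 of 10 neighbours of PGC with the block and 1 with a pseudocount of 0.1 (FRS3), and 2 of 6 neighbours of CHRNA2 with the block and 1 under median-ratio scaling (TRIM35). All genes called in DHT minus VEH numbered 1709, and 4559 with the block. Calls among the androgen-induced genes in BIC.DHT minus DHT were 11, 13 with the block, 5 to 6 without 1 replicate and 0 when only the groups compared entered the fit, which was also the count for enzalutamide and apalutamide. In that smaller fit BHLHA15, TRIM35 and COL1A1 also lost each of their calls (adjusted p from 0.086 to 0.29). Of the 10 genes most like PGC, 3 remained with a pseudocount of 0.1, 3 over the 14 libraries other than DHT and 2 over group means, and of those most like CHRNA2, 5, 3 and 6 remained. The cause of these moves was not tested. The read depth behind values below 1 TPM is unknown.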
